A study of Mus musculus with 9 samples.

Results

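Imprinted genes are transcribed mainly from the copy inherited from 1 parent. Their levels were described here in 9 mouse embryonic stem cell (mESC) lines that are labelled female. A list of 50 imprinted genes was matched to the arrays, and 43 of them had a row of the table annotated with their symbol alone, out of 19938 genes with such a row. Of the 43 measured genes, 23 are known as paternally expressed and 20 as maternally expressed. Snrpn, Mirg, Gnas and Ube3a shared their row with other symbols, and Kcnq1ot1, Zrsr1 and Slc22a3 were not analysed here. All lines were C57BL/6 by the labels (C57BL/6J in the study's methods), and each came from a single blastocyst. The 3 control lines (mESCFB, lines FB1 to FB3) came from blastocysts flushed from the uterus after natural mating. The 3 mESCKAA lines (KAA1 to KAA3) came from in vitro fertilization (IVF) with embryo culture at 5% O2 in KSOM supplemented with amino acids, the optimal condition, and the 3 mESCWM lines (WM1 to WM3) from IVF with embryo culture at 20% O2 in Whitten's Medium, the suboptimal one. Every line was derived on CF-1 mouse embryonic fibroblast feeders with LIF, 2i inhibitors and serum, was moved to gelatin to remove the feeders, and was collected at the eighth passage, so all groups share a period of culture that follows the embryo treatment.

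Imprinting rests on DNA methylation that is laid down differently in egg and sperm at control regions and is kept through the wave of demethylation that follows fertilization. Many imprinted genes lie in clusters in which 1 control region sets the expression of maternally and paternally expressed neighbours, often through a long noncoding RNA or an insulator. Embryo culture and stem cell culture are both settings in which these marks are known to be vulnerable, and many imprinted genes regulate growth of the fetus and placenta. The arrays read RNA of both alleles together, so the values below are total levels on the log2 scale and carry no information on which allele was used. In bulk samples, fewer cells of a type and less RNA per cell cannot be told apart.

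Array medians lay between 4.64 and 4.70, and the markers of mESC were at or above the median level of all rows for all 15 genes of the list. The feeder list, of which 19 of 20 genes were measured, had a summed linear level of 1160 to 1190 in mESCFB, 1190 to 1430 in mESCKAA and 1410 to 1810 in mESCWM. Of the 19 genes, 16 had a difference above 0 for mESCWM against mESCFB, led by Fn1 at 0.73 (SE 0.250), Vim at 0.57 (SE 0.162) and Mmp2 at 0.52 (SE 0.181), and 0 passed limma's adjusted threshold. Vim did not overlap between these groups, while the fibroblast genes Dcn, Lum and Postn lay between 1.68 and 3.52 in every line. The summed primitive endoderm markers (10 of 10 measured) stood apart in FB1 at 730 and in KAA1 at 964, against 282 to 361 in the other 7 lines. The trophoblast markers (10 of 12 measured) summed to 4890 to 8000, with overlapping groups. Although all lines are labelled female, the Y-linked gene Eif2s3y was at 4.78 in FB1, 3.72 in KAA2 and 5.19 in WM3, and between 1.77 and 2.2 in the other lines. The median deviation of X-linked genes, relative to that of autosomal genes, was 0.295 in FB2 and 0.137 in FB3, and lay between -0.098 and -0.014 in the remaining lines. The part of feeder RNA, primitive endoderm, Y-linked signal and X-linked dosage in the results below was not tested. For H13, Igf2, Ndn and some other genes, differences are also given without FB1, KAA2 and WM3. That leaves FB2 and FB3, the lines with raised X-linked deviation, as the only control lines. X-linked dosage and the control group cannot be told apart there.

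No imprinted gene passed the threshold in any of the 3 comparisons. With limma, 0 of 43 genes had an adjusted p under 0.05 for mESCKAA against mESCFB, for mESCWM against mESCFB or for mESCWM against mESCKAA, beside 0.0% of all 23410 rows in each. The smallest adjusted p among the imprinted genes by limma was 0.918, 0.819 and 0.752 in that order. The rank product, the test named in the study's methods, called 0 of the 43 genes in any comparison. Over all rows it called 0.0128% higher and 0.0812% lower in mESCKAA against mESCFB, 0.0128% and 0.103% in mESCWM against mESCFB, and 0.248% and 0.0299% in mESCWM against mESCKAA. With 3 lines a group, the smallest p of an exact permutation test of a single gene is 0.1, and the number of arrays limits the precision of every value here.

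At an unadjusted p under 0.05, 5 of the 43 imprinted genes (11.6%) separated mESCKAA from mESCFB, beside 4.81% of all rows. Igf2, Zim1 and H13 had higher levels in mESCKAA (6.98%, beside 2.73% of all rows), and Ndn and Mcts2 had lower levels (4.65%, beside 2.08%). Between mESCWM and mESCFB there were 2 such genes (4.65%, beside 5.89% of all rows). Nnat was higher in mESCWM (2.33%, beside 2.73%) and Ndn lower (2.33%, beside 3.17%). Between mESCWM and mESCKAA there were 3 (6.98%, beside 6.29% of all rows), Igf2, Zim1 and H13, all lower in mESCWM (beside 3.29%).

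Groups that did not overlap gave a similar list. For mESCKAA against mESCFB there were 5 such genes (11.6%, beside 8.08% of all rows), with Igf2, Slc22a18, Zim1 and H13 higher (9.3%, beside 4.38%) and Ndn lower (2.33%, beside 3.7%). For mESCWM against mESCFB, Nnat was higher (2.33%, beside 3.58%) and Ndn lower (2.33%, beside 4.55%), together 4.65% beside 8.13%. For mESCWM against mESCKAA, Inpp5f was higher (2.33%, beside 4.03%) and Igf2, Zim1 and H13 lower (6.98%, beside 4.63%), together 9.3% beside 8.66%. Each of these shares rests on at most 5 genes. Both comparisons with mESCFB share its 3 lines, and both comparisons with mESCKAA share that group.

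The medians of both parental classes lay close to 0. For mESCKAA against mESCFB the median log2 difference was -0.04 over the paternally expressed genes, with 9 of 23 above 0, and 0.03 over the maternally expressed genes, with 12 of 20 above 0, while the median of all rows was 0.01 and 52.4% of them were above 0. For mESCWM against mESCFB the medians were -0.03 (10 of 23 above 0) and 0.06 (13 of 20 above 0), beside 0.01 over all rows, of which 51.6% were above 0. For mESCWM against mESCKAA they were 0.02 (12 of 23) and -0.02 (9 of 20), beside -0.01 over all rows, of which 47.8% were above 0. The differences of single genes spanned -0.60 to 0.66, -0.78 to 0.71 and -0.74 to 0.76 in the 3 comparisons. Outside the range that held the middle 95% of all rows lay 9 genes in the first comparison, 5 in the second and 8 in the third.

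**Figure D1:**
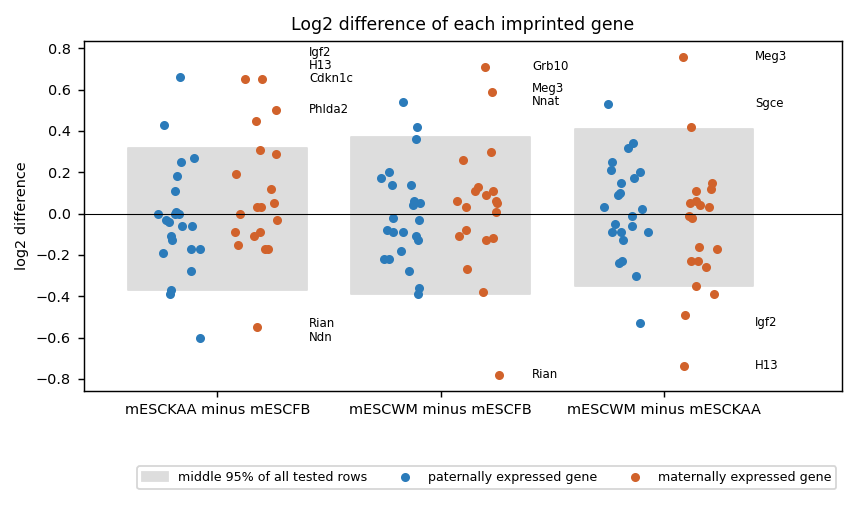
Log2 difference of each of the 43 imprinted genes (points, y axis) in the 3 comparisons (x axis), paternally expressed genes at the left in blue and maternally expressed genes at the right in orange, with the range of the middle 95% of all tested rows in grey and names for differences of 0.5 or more in size. The points of both classes lie on both sides of 0, and Rian at -0.78 and Meg3 at 0.76 lie farthest out, although the Rian value was -0.02 without FB2 and the Meg3 groups overlapped. The mean level of Rian was below the median level of all rows.

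The gene with the smallest p in both comparisons that involve mESCKAA was H13, which encodes an intramembrane protease that cuts signal peptides. H13 is the maternally expressed host of Mcts2, a paternally expressed retrogene within an H13 intron, and expression from the Mcts2 promoter is known to go along with early ending of H13 transcripts on the same chromosome. The 250 bases before each start are shown because both genes of the pair had an unadjusted p under 0.05 for mESCKAA against mESCFB. They come from RefSeq on GRCm38.p6, plus strand, at chr2:152669211-152669460 for H13 and chr2:152686898-152687147 for Mcts2, and capitals mark TGCCGC or its reverse complement GCGGCA, the core hexamer that the imprint-keeping protein ZFP57 is known to bind when methylated. The hexamer was present once before Mcts2 and absent from the H13 window.
H13: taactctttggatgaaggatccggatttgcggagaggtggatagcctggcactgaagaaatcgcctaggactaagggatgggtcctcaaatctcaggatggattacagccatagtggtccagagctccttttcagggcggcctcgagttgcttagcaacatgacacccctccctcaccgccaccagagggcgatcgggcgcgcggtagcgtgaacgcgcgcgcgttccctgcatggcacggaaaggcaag
Mcts2: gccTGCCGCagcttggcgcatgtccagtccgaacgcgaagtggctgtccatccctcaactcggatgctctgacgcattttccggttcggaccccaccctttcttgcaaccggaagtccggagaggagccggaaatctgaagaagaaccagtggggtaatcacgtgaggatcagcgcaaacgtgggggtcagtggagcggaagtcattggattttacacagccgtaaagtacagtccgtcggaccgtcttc

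H13 was at 8.12, 7.61 and 7.71 in FB1, FB2 and FB3, at 8.48, 8.53 and 8.39 in KAA1, KAA2 and KAA3, and at 7.50, 7.69 and 8.00 in WM1, WM2 and WM3. All 3 mESCKAA lines lay above the other 6 lines, which overlapped each other. The log2 difference was 0.65 (SE 0.159, adjusted p = 0.918 by limma) for mESCKAA against mESCFB, a 1.57-fold difference, and -0.74 (SE 0.159, adjusted p = 0.752 by limma) for mESCWM against mESCKAA. Leaving out each line in turn gave 0.55 to 0.81 and -0.87 to -0.62. Without FB1, KAA2 and WM3 the differences were 0.78 and -0.84, and the part of Y-linked signal or X-linked dosage in them was not tested.

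Mcts2, which is related to a translation re-initiation factor, was at 9.43, 9.88 and 9.94 in mESCFB, 9.19, 9.57 and 9.32 in mESCKAA and 9.64, 9.66 and 9.55 in mESCWM. FB1 lay within the mESCKAA range and the other control lines above it. The log2 difference of mESCKAA against mESCFB was -0.39 (SE 0.149, adjusted p = 0.918 by limma). Over the 9 lines, H13 and Mcts2 had Pearson's r of -0.759 and Spearman's rho of -0.683, while r was -0.944 without KAA2 and WM1 and -0.598 over deviations from the group means, a pair chosen after its values were seen and given with no test. Mcts2 is a copy of Mcts1, so its probes could also read that gene.

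Igf2, the paternally expressed growth factor of the fetus, was at 7.78, 7.09 and 7.73 in mESCFB, 7.89, 8.44 and 8.26 in mESCKAA and 7.78, 7.55 and 7.67 in mESCWM. Every mESCKAA line lay above every other line, with KAA1 close to FB1 and WM1. The log2 difference was 0.66 (SE 0.201, adjusted p = 0.918 by limma) for mESCKAA against mESCFB and -0.53 (SE 0.201, adjusted p = 0.771 by limma) for mESCWM against mESCKAA. Without FB1, KAA2 and WM3 these were 0.67 and -0.41. Between mESCWM and mESCFB, which overlapped, the difference was 0.14 (SE 0.201).

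In the Peg3 cluster, the paternally expressed zinc finger gene Peg3 was at 8.58, 8.86 and 8.92 in mESCFB, 8.69, 8.35 and 8.81 in mESCKAA and 9.42, 8.45 and 8.23 in mESCWM, so that the mESCWM lines held both the highest and the lowest value. Zim1, a maternally expressed zinc finger gene of the cluster, was at 2.62, 2.36 and 2.57 in mESCFB, 2.98, 2.82 and 2.68 in mESCKAA and 2.47, 2.62 and 2.62 in mESCWM. These values are among the low signals of the arrays, below the median level of all rows (4.67). The log2 difference of Zim1 was 0.31 (SE 0.106, adjusted p = 0.918 by limma) for mESCKAA against mESCFB and -0.26 (SE 0.106, adjusted p = 0.771 by limma) for mESCWM against mESCKAA. Usp29, a paternally expressed deubiquitinase gene, also had low signal and lay between 2.57 and 3.03.

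In the Snrpn-Ube3a cluster, the leading gene was Ndn, which encodes the growth suppressor necdin. Its promoter window is shown as that of the gene that was lower than mESCFB in both IVF groups. It lies at chr7:62348027-62348276 on the plus strand, holds 5 CpG and has no copy of the ZFP57 hexamer.
Ndn: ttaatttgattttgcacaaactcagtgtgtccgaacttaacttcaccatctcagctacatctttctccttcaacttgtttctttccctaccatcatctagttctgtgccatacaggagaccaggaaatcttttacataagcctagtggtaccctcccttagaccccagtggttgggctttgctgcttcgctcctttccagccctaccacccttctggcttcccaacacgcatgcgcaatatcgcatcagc

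Ndn was at 6.61, 7.08 and 6.78 in mESCFB, 6.34, 5.94 and 6.41 in mESCKAA and 6.49, 6.33 and 6.49 in mESCWM. Both IVF groups lay below all 3 control lines and overlapped each other. The log2 difference was -0.60 (SE 0.153, adjusted p = 0.918 by limma) for mESCKAA and -0.39 (SE 0.153, adjusted p = 0.819 by limma) for mESCWM against the same control lines. Between mESCWM and mESCKAA the difference was 0.21 (SE 0.153). Leaving out each line in turn gave -0.70 to -0.45 and -0.49 to -0.26 for the comparisons with mESCFB. Without FB1, KAA2 and WM3 the differences were -0.56 and -0.52. Only the control lines FB2 and FB3 had raised X-linked deviation, and its part in the Ndn differences was not tested.

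The neighbours of Ndn had differences in both directions. Magel2, a relative of Ndn that acts in ubiquitin ligase complexes, had log2 differences of 0.25 (SE 0.192) for mESCKAA and 0.20 (SE 0.192) for mESCWM against mESCFB, with its lowest value of 4.16 in FB1. Peg12 differed by 0.00 and -0.09 (SE 0.145), and Mkrn3, whose loss is known in early puberty and whose signal was below the median level, by -0.13 and -0.22 (SE 0.178). The row shared by Snurf and Snrpn, which encode a small protein and a splicing protein from 1 transcript, was at 9.75, 10.46 and 10.30 in mESCFB, 9.89, 9.73 and 10.04 in mESCKAA and 10.26, 9.30 and 9.68 in mESCWM. Like Ndn it had lower means in both IVF groups, by log2 differences of -0.28 and -0.42 (SE 0.254), but with overlapping groups. A row for Ube3a, the maternally expressed ubiquitin ligase of the cluster, carried 3 further symbols and lay between 6.37 and 7.02, with differences of -0.19 and -0.19 (SE 0.146).

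Nnat, a paternally expressed membrane protein gene of the nervous system, was at 10.46, 10.58 and 10.75 in mESCFB, 10.69, 11.19 and 11.21 in mESCKAA and 11.65, 10.86 and 10.89 in mESCWM. All mESCWM lines lay above all control lines, with WM1 highest. The log2 difference of mESCWM against mESCFB was 0.54 (SE 0.227, adjusted p = 0.819 by limma), and it ranged from 0.28 to 0.67 when each line was left out in turn. The summed feeder markers also did not overlap between these groups, and their part in the result was not tested. The row of Gnas, a G protein gene with transcripts from either allele, was shared with its antisense RNA and had differences of 0.17 and 0.25 (SE 0.127) for mESCKAA and mESCWM against mESCFB.

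**Figure D2:**
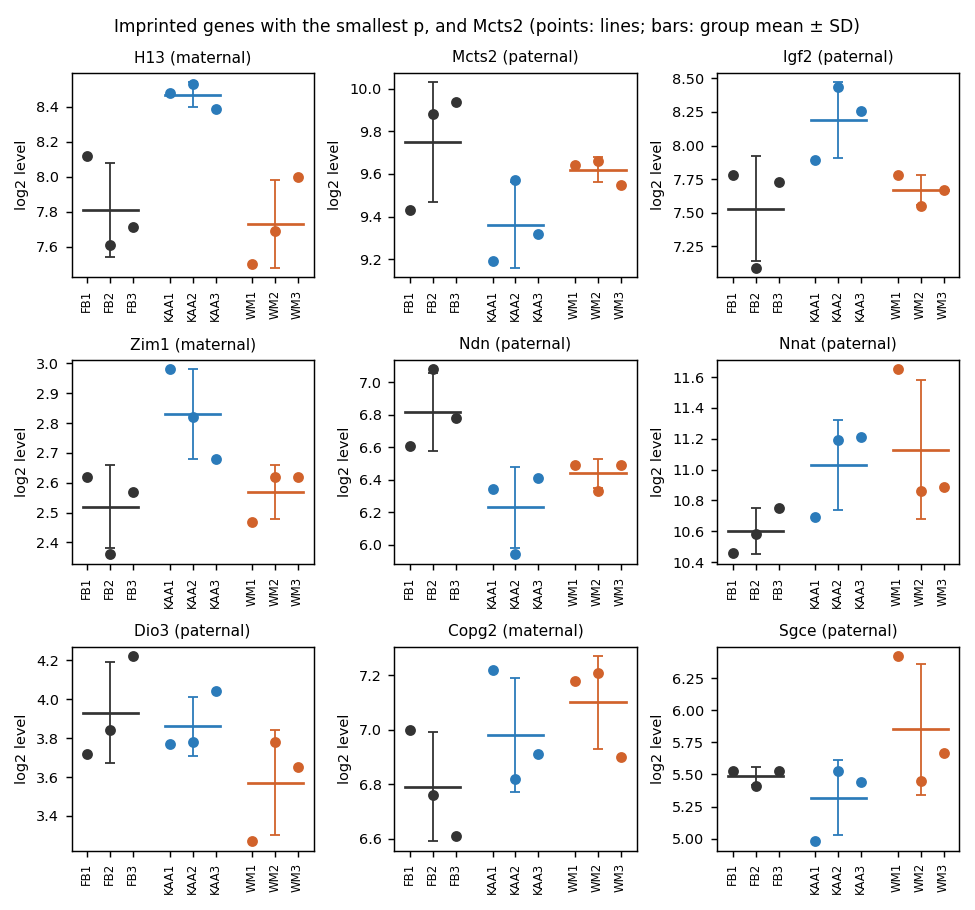
Log2 level (y axis) of 9 imprinted genes in each mESC line (points, x axis), with the group mean ± SD as bars: the genes with the smallest p in any comparison, and Mcts2, the partner of H13. The mESCKAA lines lie above all others for H13, Igf2 and Zim1, and both IVF groups lie below mESCFB for Ndn, while every axis spans its own range of values and does not start at 0.

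The 43 imprinted genes varied between lines of the same group more than most rows did. The median SD within groups was 0.247 over the 43 genes and 0.156 over all tested rows, and it was 0.291 and 0.162 over the genes and rows at or above the median level. An SD above 0.5 was found for 5 of 43 imprinted genes (11.6%) and 1.83% of all rows. The median SD was 0.268 for paternally and 0.232 for maternally expressed genes, although 4 of the 5 genes above 0.5 were maternally expressed. A list of 34 other measured imprinted genes had a median SD of 0.17, with 0 above 0.5 and the highest, 0.36, for Slc38a4. The median over the imprinted genes was highest in the control lines, at 0.262 against 0.182 in mESCKAA and 0.217 in mESCWM, whereas over all rows it was 0.120, 0.129 and 0.134. No test was run on these spreads, since genes of 1 cluster are not independent.

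The widest spread lay in the Dlk1-Dio3 cluster, whose maternally expressed noncoding RNAs Meg3 and Rian are read from the same strand of the maternal chromosome and are known to vary with the culture and quality of mESC lines. Their promoter windows are shown as those of the members with the largest spread, on the plus strand at chr12:109540746-109540995 for Meg3 and chr12:109603695-109603944 for Rian. Of the windows RefSeq gives for Meg3, the one with the hexamer is shown, and the other holds 0 CpG and no copy. The Meg3 window shown holds 10 CpG and 1 copy of the hexamer on the minus strand, marked in capitals, and the Rian window holds 0 CpG and no copy.
Meg3: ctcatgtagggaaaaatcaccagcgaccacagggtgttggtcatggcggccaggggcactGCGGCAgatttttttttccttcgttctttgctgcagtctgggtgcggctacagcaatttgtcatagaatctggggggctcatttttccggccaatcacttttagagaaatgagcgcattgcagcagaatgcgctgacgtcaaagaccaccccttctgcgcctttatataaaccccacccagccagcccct
Rian: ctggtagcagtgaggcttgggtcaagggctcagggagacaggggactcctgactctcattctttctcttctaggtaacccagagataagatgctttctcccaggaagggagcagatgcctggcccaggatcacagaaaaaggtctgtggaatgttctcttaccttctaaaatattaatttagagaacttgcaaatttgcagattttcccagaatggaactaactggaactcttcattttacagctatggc

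Meg3 was at 5.22, 8.21 and 6.75 in FB1, FB2 and FB3, at 6.75, 6.44 and 6.46 in mESCKAA and at 6.64, 7.37 and 7.93 in mESCWM. The lowest and the highest value were both in control lines, and the SD within groups was 0.95. Rian, which hosts small nucleolar RNAs, was at 2.62, 5.66 and 4.11 in mESCFB, 3.4, 3.33 and 4.01 in mESCKAA and 3.07, 3.48 and 3.49 in mESCWM. The same FB1 and FB2 lines were at its ends, and its SD within groups was 0.91. The mean of Rian over the 9 lines, 3.69, lay below the median level of all rows (4.67). FB1 was 1 of the lines with high primitive endoderm markers and with Eif2s3y signal, and FB2 had the highest X-linked deviation, and the part of these in the Meg3 and Rian levels was not tested.

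Group differences of these noncoding RNAs followed single control lines. Meg3 differed by -0.17 (SE 0.647) for mESCKAA and 0.59 (SE 0.647) for mESCWM against mESCFB, but by 0.57 for mESCKAA without FB2 and by -0.16 for mESCWM without FB1. Rian differed by -0.55 and -0.78 (SE 0.625), and these were 0.21 and -0.02 without FB2, -1.31 and -1.54 without FB1, and -1.18 and -1.61 without FB1, KAA2 and WM3. Over the 9 lines Meg3 and Rian had r = 0.688 (exact permutation p = 0.046, adjusted p = 0.107 over 7 pairs) and rho = 0.650 (exact permutation p = 0.0666, adjusted p = 0.155), and without FB1 and FB2 r was -0.113, so the relation rested on those lines. The row shared by Mirg, another noncoding RNA of the cluster, and a microRNA was at 2.51, 4.28 and 2.54 in mESCFB, 2.22, 2.30 and 2.34 in mESCKAA and 3.88, 2.71 and 3.87 in mESCWM. All 3 mESCWM lines lay above the mESCKAA lines in that row, with a log2 difference of 1.2 (SE 0.483, adjusted p = 0.771 by limma) at a low signal.

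The paternally expressed protein-coding genes of the cluster varied less. Dlk1, a membrane protein related to Notch ligands, lay between 5.99 in FB1 and 6.55 in WM2, with log2 differences of 0.11 and 0.14 (SE 0.131) for mESCKAA and mESCWM against mESCFB. Its r with Meg3 was 0.746 (exact permutation p = 0.0192, adjusted p = 0.0672 over 7 pairs), rho was 0.552 (exact permutation p = 0.129, adjusted p = 0.181), and r was 0.202 without FB1 and FB2. Rtl1, a retrotransposon-derived gene needed in the placenta, was highest in FB2 at 4.98 and lay between 3.73 and 4.47 elsewhere. Dio3, which inactivates thyroid hormone, was at 3.72, 3.84 and 4.22 in mESCFB, 3.77, 3.78 and 4.04 in mESCKAA and 3.27, 3.78 and 3.65 in mESCWM. Its log2 difference of mESCWM against mESCFB was -0.36 (SE 0.170, adjusted p = 0.819 by limma), with overlapping groups. The means of Rtl1 (4.23) and Dio3 (3.79) over the 9 lines lay below the median level of all rows.

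Grb10, a maternally expressed adaptor that restrains insulin and growth factor receptors, was at 8.66, 6.49 and 7.08 in mESCFB, 8.04, 7.78 and 7.28 in mESCKAA and 7.35, 8.65 and 8.35 in mESCWM. FB1, WM2 and WM3 were high and FB2 was lowest. The SD within groups was 0.79, larger than either difference from mESCFB (0.29 for mESCKAA and 0.71 for mESCWM, SE 0.541).

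The Kcnq1 cluster holds maternally expressed genes that restrain growth. Cdkn1c, an inhibitor of cyclin-dependent kinases, was at 6.67, 5.64 and 5.93 in mESCFB, 6.96, 6.52 and 6.71 in mESCKAA and 5.71, 6.41 and 6.89 in mESCWM. Phlda2, which limits growth of the placenta, was at 10.26, 8.78 and 9.48 in mESCFB, 9.85, 9.97 and 10.21 in mESCKAA and 8.62, 9.96 and 9.96 in mESCWM. Both genes were lowest in FB2 and WM1, and over the 9 lines r was 0.874 and rho 0.550, a pair chosen after its values were seen and given with no test, and r was 0.606 without those lines. Log2 differences of mESCKAA against mESCFB were 0.65 (SE 0.331, adjusted p = 0.918 by limma) for Cdkn1c and 0.50 (SE 0.433) for Phlda2, with overlapping groups.

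Slc22a18, a transporter gene of the same cluster, was at 5.44, 5.16 and 5.06 in mESCFB, 5.61, 5.85 and 5.57 in mESCKAA and 4.91, 5.81 and 5.26 in mESCWM. The mESCKAA lines lay above the control lines, with a log2 difference of 0.45 (SE 0.213, adjusted p = 0.918 by limma). Cdkn1c, Phlda2 and Slc22a18 thus had positive differences for mESCKAA against mESCFB, none of which passed. Ascl2, a transcription factor of the trophoblast, differed by -0.15 and -0.38 (SE 0.264) for mESCKAA and mESCWM against mESCFB and was lowest in WM1 at 4.99. Cd81, a tetraspanin gene, lay between 10.97 and 11.40 and differed by 0.03 and 0.06 (SE 0.107), and the ion channel gene Kcnq1 and Tspan32 were below the median level in every line, at 3.36 to 3.69 and 3.08 to 3.80.

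Plagl1, a paternally expressed zinc finger gene that is known to act on other imprinted genes, was the paternally expressed gene with the largest spread (SD 0.59). The promoter window that holds the hexamer is shown for that reason. It lies at chr10:13090582-13090831 on the plus strand, holds 19 CpG and carries 1 copy on the minus strand, marked in capitals.
Plagl1: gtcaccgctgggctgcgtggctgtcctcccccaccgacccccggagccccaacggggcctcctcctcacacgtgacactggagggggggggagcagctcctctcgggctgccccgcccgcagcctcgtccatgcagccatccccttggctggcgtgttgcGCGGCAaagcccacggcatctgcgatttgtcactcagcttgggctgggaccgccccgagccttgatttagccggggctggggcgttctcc

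Plagl1 was at 5.66, 6.24 and 6.52 in mESCFB, 5.82, 6.78 and 6.62 in mESCKAA and 7.43, 6.29 and 5.95 in mESCWM. WM1 was highest, FB1 lowest, and the groups overlapped, with log2 differences of 0.27 and 0.42 (SE 0.408) from mESCFB. Without WM1 the mESCWM difference was -0.02. Impact, a translation regulator gene, lay between 8.57 and 9.65 and Sfmbt2, a Polycomb gene, between 5.82 in WM2 and 7.06 in WM3. Zdbf2, Inpp5f, Nap1l5 and Rasgrf1 complete the paternally expressed genes outside clusters. Zdbf2 lay between 7.01 and 7.90, Nap1l5 between 4.03 and 4.69 and Rasgrf1, an exchange factor of Ras, between 3.15 and 3.28, the latter pair at low signal. Inpp5f, a phosphatase gene, was at 4.51, 4.67 and 4.59 in mESCKAA and 4.99, 4.68 and 4.71 in mESCWM, a narrow gap with a log2 difference of 0.20 (SE 0.106, adjusted p = 0.781 by limma).

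**Figure D3:**
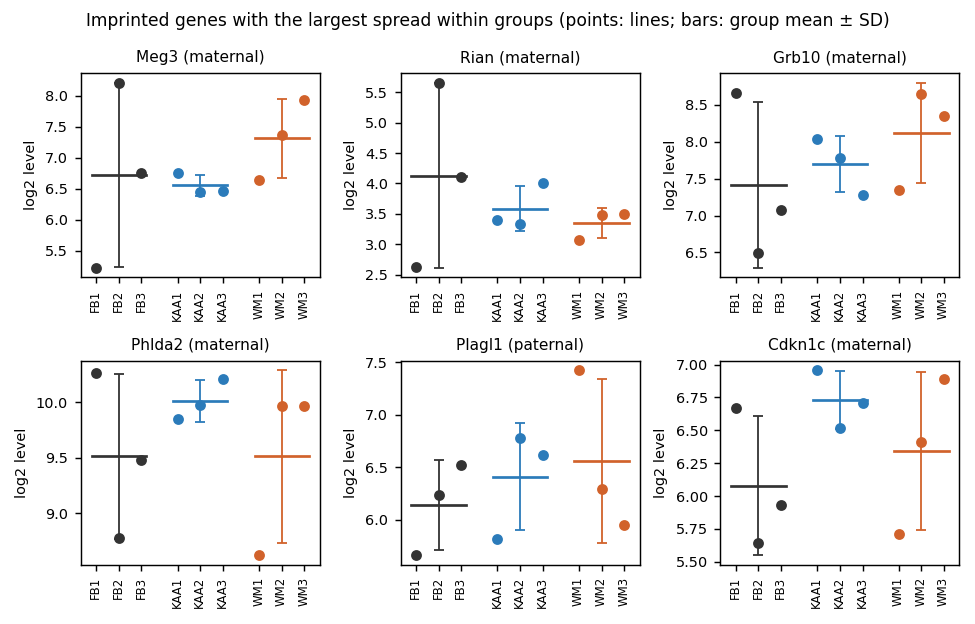
Log2 level (y axis) of the 6 imprinted genes with the largest SD within groups in each mESC line (points, x axis), with the group mean ± SD as bars and an axis of its own for each gene. Meg3 and Rian are lowest in FB1 and highest in FB2, while Phlda2 and Cdkn1c are lowest in FB2 and WM1.

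In the Peg10-Sgce cluster, the paternally expressed genes were the retrotransposon-derived placental gene Peg10 and Sgce, a sarcoglycan gene, which start close to each other on opposite strands. Sgce was at 5.53, 5.41 and 5.53 in mESCFB, 4.98, 5.53 and 5.44 in mESCKAA and 6.42, 5.45 and 5.67 in mESCWM. Its log2 difference of mESCWM against mESCKAA was 0.53 (SE 0.240, adjusted p = 0.771 by limma), and it ranged from 0.24 to 0.73 when each line was left out in turn. Peg10 was highest in WM1 at 11.51 and lowest in KAA1 at 10.80, as was Sgce. Over the 9 lines r was 0.914 (exact permutation p = 0.00217, adjusted p = 0.0152 over 7 pairs) and rho 0.695 (exact permutation p = 0.0448, adjusted p = 0.155). Without KAA1 and WM1, which hold the ends of the range, r was 0.450, so much of the relation came from those lines. The maternally expressed members Ppp1r9a and Asb4 were at 4.21 to 5.02 and 2.26 to 3.03.

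Mest, a paternally expressed hydrolase gene, lay between 9.47 in WM3 and 10.14 in KAA2, with log2 differences of 0.01 and -0.08 (SE 0.198) for mESCKAA and mESCWM against mESCFB. Its maternally expressed neighbour Copg2, which encodes a coat protein of transport vesicles, was at 7.00, 6.76 and 6.61 in mESCFB, 7.22, 6.82 and 6.91 in mESCKAA and 7.18, 7.21 and 6.90 in mESCWM. The groups overlapped at FB1 and WM3, with a log2 difference of mESCWM against mESCFB of 0.30 (SE 0.145, adjusted p = 0.819 by limma).

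In the Igf2r-Airn cluster, the maternally expressed receptor gene Igf2r, which removes IGF2, lay between 5.28 and 5.75, with log2 differences of -0.03 and 0.03 (SE 0.159) from mESCFB. Airn, the paternally expressed noncoding RNA that overlaps Igf2r and is known to silence it in cis, was between 3.54 and 4.53. The transporter gene Slc22a2 was between 3.39 and 3.68, and both had low signal, below the median level in every line. Whether Airn silences Igf2r in these lines was not tested. Over the 9 lines r of Igf2r with Airn was -0.308 (exact permutation p = 0.414, adjusted p = 0.483 over 7 pairs). The relations of Peg3 with Usp29 (r = 0.327, exact permutation p = 0.375), Peg3 with Zim1 (r = -0.443, exact permutation p = 0.228) and Copg2 with Mest (r = -0.064, exact permutation p = 0.867) did not pass either. Commd1, a maternally expressed gene, lay between 7.63 and 7.87 and differed by at most 0.12 (SE 0.088) in size between groups. Gatm, which makes the precursor of creatine, was lowest in WM2 at 4.49 and highest in FB1 at 5.85, and the serotonin receptor gene Htr2a had low signal in every line, between 3.24 and 3.85.

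Among the lines, WM1, FB2 and FB1 had the most imprinted genes with large deviations. Deviations were taken from the mean of the 9 lines. Of the 43 imprinted genes, 12 in WM1 (27.9%), 11 in FB2 (25.6%) and 8 in FB1 (18.6%) lay more than 0.5 from it. The shares of all rows were 4.08%, 3.84% and 2.57%, and those of WM1 and FB2 were also the largest of the 9 lines. In the other lines 1 to 5 imprinted genes (2.33% to 11.6%) lay that far out, beside 1.66% to 3.78% of all rows. Over the 16 paternally expressed genes at or above the median level, the median deviation of WM1 was 0.327, with 13 of 16 above 0. Over the 12 maternally expressed genes it was -0.307, with 5 of 12 above 0. In the opposite direction, KAA1 had medians of -0.169 for paternally and 0.191 for maternally expressed genes, FB1 had -0.135 and 0.083, and WM2 had -0.117 and 0.140. KAA1 and FB1 were also the lines with high primitive endoderm markers, whose part in these medians was not tested. These medians had no consistent order by group, and no test was run on them, since the lines were singled out after their values were seen.

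**Figure D4:**
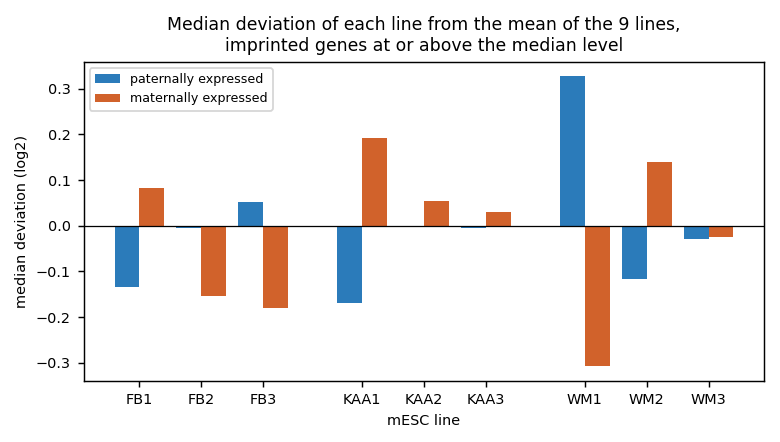
Median log2 deviation from the mean of the 9 lines (y axis) in each mESC line (x axis), over the 16 paternally (blue) and 12 maternally expressed genes (orange) at or above the median level. In WM1 the medians are 0.327 and -0.307, the farthest from 0 of any line.

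**Figure D5:**
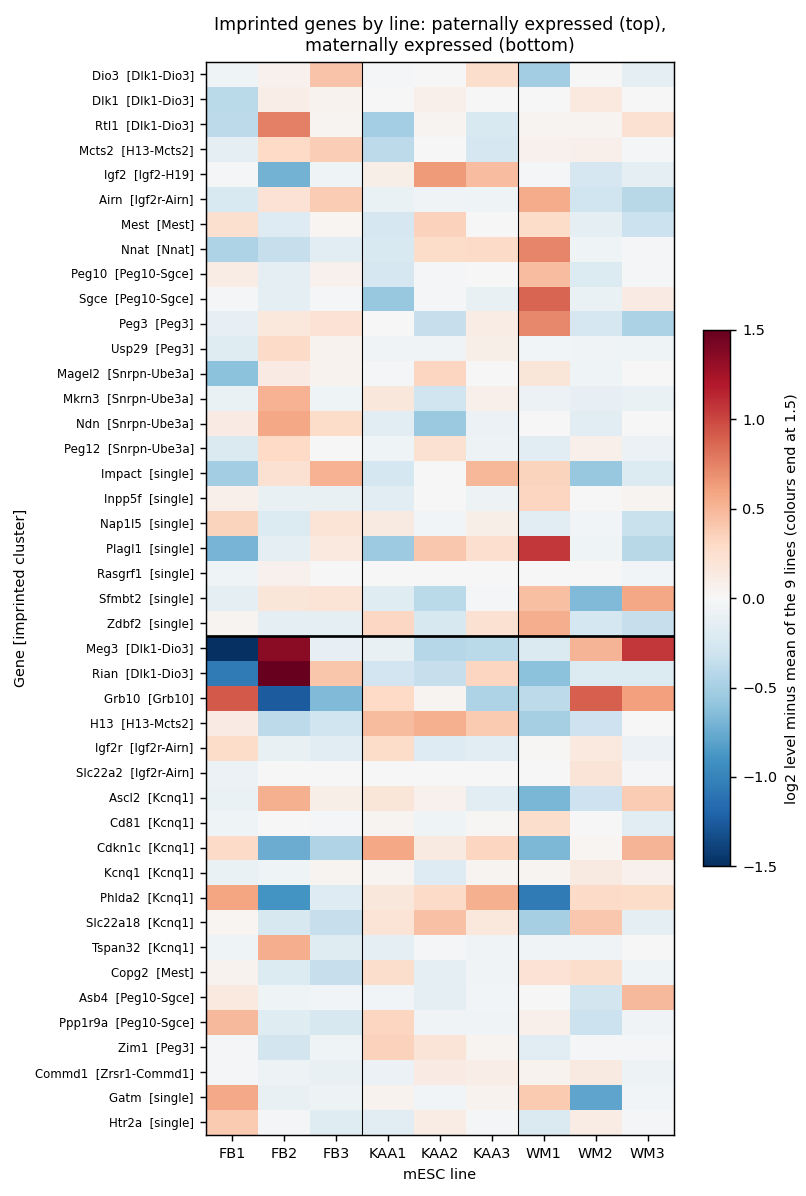
Log2 level minus the mean of the 9 lines (colour) of each of the 43 imprinted genes (rows, paternally expressed above the thick line and maternally expressed below it, with the cluster in brackets) in each mESC line (columns). Meg3 and Rian are at their lowest in FB1 and highest in FB2, Grb10 is at its lowest in FB2, and most paternally expressed genes are above their mean in WM1.

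The promoter windows of the imprinted genes were compared with those of all genes, as a description. RefSeq windows were matched for 37 of the 43 genes (not for Rtl1, Kcnq1, Cdkn1c, Peg10, Impact and Sgce), giving 49 promoters of 250 bases. TGCCGC, searched on both strands, was found in 10 of them (20.4%), against 8.68% of all 32851 promoters, and at least 2 copies were found in 6.12% against 0.874%. Those 3 windows are 1 of Zdbf2 and 2 nearly identical ones of Mest, which overlap and are counted separately. Windows with a copy belonged to Copg2, Mcts2, Meg3, Mest, Nap1l5, Plagl1, Slc22a2, Zdbf2 and Zim1, and Zdbf2 held 3 copies. The share was 23.1% among promoters of paternally and 17.4% among those of maternally expressed genes. The imprinted promoters also held more CpG, with a median of 11 against 6, and the hexamer contains a CpG. A match is no evidence of binding, and methylation was not measured here.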

How the data were processed

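Total RNA of 9 mESC lines, described by the study as independent biological samples, was hybridized to Affymetrix Mouse Gene ST arrays. The deposited log2 values were made by the authors with RMA; their processing notes name Affymetrix Expression Console and R 3.1.0, and the genome build is not given in the sources used here. Groups were taken from the titles. Of 35556 rows, 12146 have no gene in the annotation and 23410 were tested. Of these, 21789 carry 1 symbol and 1621 several. The 50 imprinted genes, their parental classes and all other lists were chosen with earlier results of these data known, and each of the 43 measured genes had a single row.

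Differences were fitted with limma 3.58.1 (R 4.3.3) on all 9 lines, with p-values two-sided and adjusted by Benjamini-Hochberg over all tested rows and a threshold of 0.05. They measure the spread between these lines. The rank product was run with 100 permutations of each array's values and a threshold of 0.05 on its false positive share. Scripts were tested on simulated data. Genes named with statistics were the 4 with the smallest p per comparison and the 6 with the largest SD within groups. Further genes were those of the correlation pairs and, from the lists, only some of the 2 with the smallest p per list and comparison. Mcts2, Slc22a18, Inpp5f and the pairs given without a test were added after their values were seen, as were the imprint maintenance genes described for their role. The other members and the shared rows are given so that every listed gene is accounted for. Of 12 listed pairs, 7 had both genes measured; correlation p-values come from two-sided exact permutation of all pairings. Alternatives changed the rows tested, a filter on low values, quantile or median normalization, the variance model, the groups fitted, a replicate block and each line in turn. Leaving out FB1, KAA2 and WM3 together was added after seeing the data.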

Additional observations from a re-analysis of the deposited data

How the results depend on the processing

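The count of 0 imprinted genes at an adjusted p under 0.05 was the same under every alternative, the rank product and each line left out included. The numbers in the titles were not used as pairs in the main fit. Deviations of same-numbered lines had r between -0.114 and 0.457 (median 0.135), against -0.331 to 0.185 (median -0.07) for other pairs of lines. In addition, 6 of 9 lines correlated best with their own number, so a factor shared by number may be present and was not tested. With the replicate block the unadjusted counts stayed 5, 2 and 3. For mESCKAA against mESCFB, mESCWM against mESCFB and mESCWM against mESCKAA, counts at an unadjusted p under 0.05 ranged over 3 to 9, 0 to 6 and 2 to 4 when each line was left out. The count for mESCWM against mESCFB was 1 with all rows of the table, 1 with only the 2 groups compared, 4 with quantile normalization and 5 without FB1, KAA2 and WM3. The median over the 43 genes was -0.001, 0.025 and -0.010; left-out lines gave -0.032 to 0.038, -0.019 to 0.038 and -0.047 to 0.037, rows at or above the median level gave 0.062 for the second and 0.029 for the third, quantile normalization -0.047 for the first and 0.017 for the third, and leaving out FB1, KAA2 and WM3 gave -0.034 for the first and 0.033 for the third. The maternally expressed median of the first comparison was 0.154 over rows at or above the median level and 0.122 without FB1, KAA2 and WM3, where 4 of 23 paternally expressed genes were above 0. For mESCWM against mESCKAA the paternally expressed median ranged from -0.098 (without WM1) to 0.053, and the number above 0 from 7 to 14. The r of Meg3 with Rian was -0.113 with the 2 farthest lines left out and 0.921 over deviations from group means. That of Meg3 with Dlk1 was 0.796 over such deviations. For Peg10 with Sgce r was 0.450 with 2 lines left out, 0.962 over deviations and 0.706 to 0.944 with 1 line left out. The Peg10-Sgce relation no longer passed without KAA1 or without WM1. For Copg2 with Mest r was 0.367, 0.022 and -0.271 to 0.133 in the same order. Deviations sum to 0 within each group and cannot be exchanged freely over the lines, so no p is given for them. Signs turned for Meg3 (-0.93 to 0.57 for mESCKAA and -0.16 to 1.33 for mESCWM against mESCFB with left-out lines, and -0.47 for mESCWM without FB1, KAA2 and WM3), Rian (-1.31 to 0.21 for mESCKAA, beside -1.54 to -0.02 for mESCWM, which kept its sign) and Grb10 (-0.17 to 0.92 for mESCKAA), where FB1 and FB2 gave the ends, for Phlda2 in mESCWM against mESCFB (-0.01 with median centring, -0.36 to 0.45 with left-out lines), Plagl1 (-0.16 for mESCKAA without FB1, KAA2 and WM3; -0.02 to 0.72 and -0.28 to 0.46 for mESCWM against mESCFB and mESCKAA with left-out lines) and Cdkn1c in mESCWM against mESCFB (-0.02 to 0.57). The cause was not tested. Taking the mean of all rows of a gene changed nothing, since each had 1 row. Of the 43 genes, 15 lay below the median level, where background signal limits what a difference can show.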

Other observations

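Genes that keep or place imprints were measured for all 20 listed symbols, each at or above the median level of all rows, and 0 of 20 passed limma's adjusted threshold in any comparison. At an unadjusted p under 0.05, Dnmt3l and Eed, 2 of the 20, had lower levels in mESCWM than in mESCFB, beside 3.17% of all rows. Dnmt3l, the cofactor that helps de novo methyltransferases set imprints in the germ line, was at 9.68, 9.66 and 9.43 in mESCFB, 9.61, 8.65 and 8.89 in mESCKAA and 8.38, 8.80 and 9.41 in mESCWM, with a log2 difference of mESCWM against mESCFB of -0.73 (SE 0.295, adjusted p = 0.819 by limma). Eed, a Polycomb subunit, was at 8.45, 8.38 and 8.42 in mESCFB and 8.03, 8.2 and 8.19 in mESCWM, a log2 difference of -0.28 (SE 0.109, adjusted p = 0.819 by limma). All mESCWM lines lay below all mESCFB lines for both genes, as for 4.55% of all rows. Zfp57, which binds methylated imprinting control regions, was lowest in WM1 at 8.85 and highest in WM2 at 9.62, and its log2 differences from mESCFB were -0.18 for mESCKAA and -0.22 for mESCWM (SE 0.181). The maintenance methyltransferase gene Dnmt1 differed by -0.05 and 0.03 (SE 0.126), and its partner Uhrf1 by 0.02 and -0.08 (SE 0.108).

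A list of 44 other imprinted genes had 34 with a row of their own, and 0 passed limma's adjusted threshold. At an unadjusted p under 0.05, 3 of 34 were higher and 1 lower in mESCKAA than in mESCFB, beside 2.73% and 2.08% of all rows, and 3 were higher and 1 lower in mESCWM than in mESCFB, beside 2.73% and 3.17%. Osbpl5, a lipid transfer gene beside the Kcnq1 cluster, was at 4.57, 4.6 and 4.76 in mESCFB, 4.86, 4.93 and 5.02 in mESCKAA and 4.86, 4.89 and 4.91 in mESCWM. Both IVF groups lay above all control lines, with log2 differences of 0.29 (SE 0.079, adjusted p = 0.918 by limma) and 0.24 (SE 0.079, adjusted p = 0.819 by limma). Qpct, whose signal was below the median level in every line, was at 4.05, 4.56 and 4.45 in mESCWM. These values lay above every other line, narrowly for WM1, since mESCFB reached 3.99. The log2 differences were 0.42 from mESCFB (SE 0.131, adjusted p = 0.819 by limma) and 0.43 from mESCKAA (SE 0.131, adjusted p = 0.771 by limma). Smoc1 had a log2 difference of 0.57 (SE 0.180, adjusted p = 0.771 by limma) for mESCWM against mESCKAA. For mESCKAA against mESCFB, Smoc1 differed by -0.47 (SE 0.180) and Klf14 by 0.25 (SE 0.088), each with an adjusted p of 0.918 by limma.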
